A study of Arabidopsis thaliana with 12 samples.

Results

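The comparison described here set inflorescence tips of Arabidopsis thaliana taken 7 days after a steroid treatment against tips taken 7 days after a mock treatment. Its members were the samples titled as steroid or mock on that day, 2 of each, or 4 of the 12 samples of the series. Per the series design, all plants, mock or steroid, carried ap1-1 and cal-1 in homozygous form, together with AGAMOUS fused to the rat glucocorticoid receptor (35S:AGGR) under the 35S promoter, which is active in most plant tissues. The mock plants therefore carried the same mutations and the same fusion. Per the labels, steroid tips received 10 µM dexamethasone, diluted from a stock in ethanol, with 0.015% Silwet, a wetting agent, and mock tips received 0.1% ethanol with the same Silwet. The other 8 samples were mock and steroid tips of days 1 and 3, again 2 in each group. The labels give the 2 samples of a group as independent but say nothing of separate plantings. The p-values below therefore rest on the spread between these samples. In the day 7 fit that spread, with 2 residual degrees of freedom, was pooled with the spread of other probe sets, with 9.17.

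AGAMOUS is a MADS-domain transcription factor that specifies stamens and carpels and ends the activity of the floral meristem. Fused to the steroid receptor it is held out of the nucleus until dexamethasone is applied. In ap1 cal plants the shoot produces inflorescence meristems in place of flowers, so induction gives many flowers that begin to form stamens and carpels together. By a week the organs are differentiating, and the comparison asks which organ programmes and functions then differ. No plants without the fusion were treated, and a response to dexamethasone alone cannot be told apart from a response to AGAMOUS. In these bulk tips, more cells of a type cannot be told apart from more RNA per cell.

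Each sample was read on 1 Affymetrix ATH1 array, which reports a gene through a set of short probes, a probe set. The deposited array medians on day 7 were 84.8 and 95.2 in mock and 62.6 and 84.95 in steroid tips, and each array was multiplied to a common median of 24.8. All values below are such scaled signals, and log2 differences were taken after an offset of 4.35 was added, so they understate ratios of weak signals. Across tested probe sets Pearson's r was 0.985 between the mock replicates and 0.982 between the steroid replicates, and between mock and steroid arrays it ran from 0.970 to 0.979. For GAPDH, the 3' probe signal over the 5' one, which grows as RNA degrades, was 1.31 and 1.32 in mock and 1.41 and 1.09 in steroid arrays. The same ratio for ubiquitin was 1.61 and 1.68 in mock and 1.85 and 1.86 in steroid arrays, and for actin it was 4.37 and 6.03 against 6.42 and 6.05, so both were higher in the steroid arrays. Their part in the results below was not tested. Scan 1 held both mock arrays and scan 2 both steroid arrays, on 1 chip lot with 1 fluidics protocol, and so the scan cannot be told apart from the treatment. In both groups replicate 1 was washed on fluidics module 3 and replicate 2 on module 4.

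The tissue label was checked with the genes that have a name on the array. FD, a bZIP partner of the flowering signal that is active in shoot and inflorescence meristems, lay between percentiles 71.7 and 85.8 of signal on the 4 arrays. AGL24, an inflorescence MADS-box gene, lay between percentiles 85.3 and 88.9. CLV3, the stem cell peptide gene, was weak, between percentiles 32.6 and 40.1. The photosynthesis genes RCA and LHCB4.1 lay between percentiles 97.0 and 98.5, among the brightest signals. AGAMOUS has no name in the table of gene names and could not be checked by name.

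Of 16511 probe sets tested in the 4 arrays, limma called 267 at an adjusted p under 0.05 (1.62%), of which 154 were higher (0.933%) and 113 lower (0.684%) in steroid tips. At an unadjusted p under 0.05 there were 2386, or 14.5% of those tested, the share against which the unadjusted counts of the gene lists below are to be read. The counts of calls in those lists are to be read against the 1.62% called. Both steroid arrays lay above both mock arrays in 22.4% of tested probe sets and below both in 22.3%, so groups that do not overlap were common and describe a gene without setting it apart. The rises were the larger changes. Among the higher calls 55 changed at least 2-fold and 17 at least 4-fold, whereas among the lower calls 12 changed at least 2-fold and 0 at least 4-fold. In 29 of the higher calls both mock arrays lay below percentile 40 of their own signal and both steroid arrays above it, and 1 of the lower calls showed the opposite pattern. A probe set was tested if 2 of 12 arrays passed that percentile, so such calls may have entered through 1 group alone. The share of this pattern over all tested probe sets was not counted, and nothing is concluded from it. Of the 55 calls named by rule below, 47 missed the threshold when 12 arrays shared 1 spread, 42 with no filter, 42 without a variance trend, 36 without steroid replicate 1 and 32 without steroid replicate 2, and 0 turned direction. The count of calls was 26 without steroid replicate 1, 67 without steroid replicate 2 and 429 without mock replicate 1. It was 16 with no filter on weak signals, 16 without a trend of variance with signal, and 9 (0.0545%) when all 12 arrays shared 1 estimate of spread, of which 8 were higher (0.0485%) and 1 lower (0.00606%). With 12 arrays and weights per group it was 289 (1.75%), of which 167 were higher (1.01%) and 122 lower (0.739%), and 199 of them were among the 267.

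**Figure D1:**
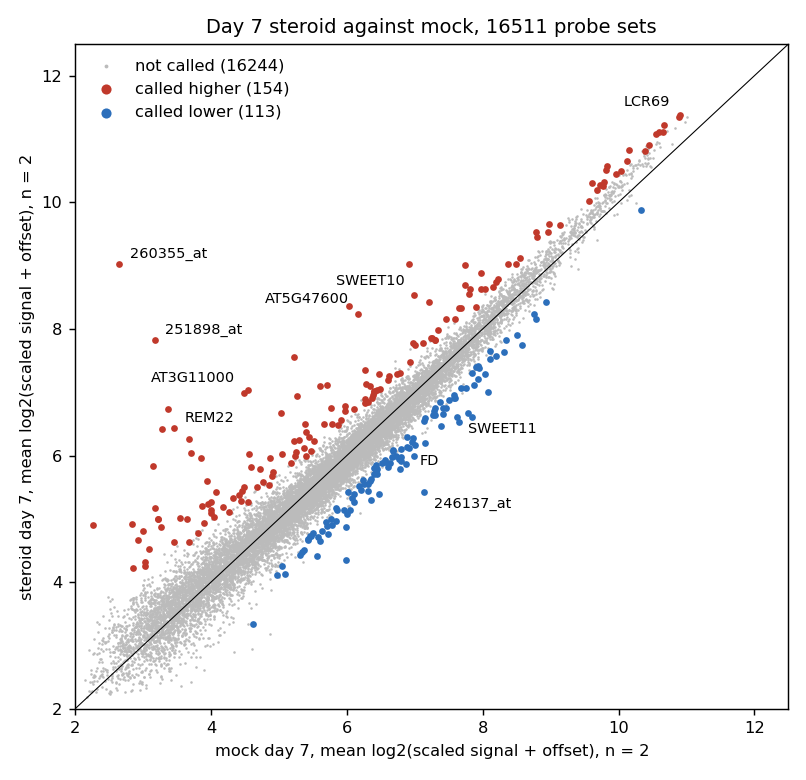
Mean log2 of scaled signal plus offset in steroid (y) against mock (x) tips of day 7, with 1 point per tested probe set and the line of equal signal. The 154 called rises (red) include weak mock signals brought to moderate levels, the 113 called falls (blue) lie close to the line, and the brightest probe sets sit above it.

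The steroid arrays did not deviate equally. Steroid replicate 1 was above replicate 2 in 120 of the 154 higher calls and below it in 80 of the 113 lower calls, against 48.7% above over all tested probe sets. Mock replicate 1 was above replicate 2 in 68 and 50 of these calls. Brightness also moved with the treatment. The brightest 1% of tested probe sets, 166 in number, had a median log2 difference of 0.28, with 20 called higher and 1 lower, against a median of 0.00 over all probe sets. With quantile normalization that median was 0.01 and the counts were 2 and 5. Calls among very bright probe sets are therefore given below with both values.

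The largest rises were in probe sets to which the table of gene names gives no single gene. Probe set 260355_at read 0.585 and 3.57 in the mock arrays and 648 and 415 in the steroid arrays (log2 6.39, SE 0.23, limma adjusted p = 1.4e-07). Probe set 251898_at went from 6.43 and 3.18 to 217 and 229 (log2 4.66, SE 0.17, adjusted p = 1.4e-07). In both, the steroid arrays lay far above the mock arrays, whose signals were near the bottom of the range. The size of such a rise depends on the offset, and over the alternatives the log2 values ran from 5.63 to 7.03 for 260355_at and from 4.11 to 5.05 for 251898_at. Probe set 264872_at rose from 6.35 and 5.52 to 109 and 95.3 (log2 3.37, 2.92 to 3.69 over the alternatives) and 254391_at from 3.74 and 7.19 to 80.5 and 81.7 (log2 3.15, 2.68 to 3.48). These 4 were called under each of the 14 alternatives tried, except 264872_at, which missed the threshold when 12 arrays shared 1 spread (adjusted p = 0.0763).

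Of the 9232 tested probe sets with a single gene name, 115 were called (1.25%), 61 as rises (0.661%) and 54 as falls (0.585%). Among them the largest rise belonged to REM22, of the REM group of plant B3-domain DNA-binding proteins, which are named for expression in reproductive meristems. It read 7.34 and 5.97 in mock and 78.1 and 87.2 in steroid arrays (log2 2.98, SE 0.16, 2.57 to 3.27 over the alternatives, adjusted p = 2.67e-06). AT2G35310, listed as REM23, rose 2.81-fold, from 48.7 and 40.5 to 146 and 120 (log2 1.49, adjusted p = 0.000308). AT2G16210, listed as REM24, rose 2.41-fold, from 8.28 and 15.9 to 37.7 and 30.9 (log2 1.27, adjusted p = 0.0215). These 3 genes showed no overlap between the groups, as did 22.4% of all tested probe sets in that direction. AT5G09780, listed as REM25, had 6.84 and 5.81 in mock and 18.2 and 16.1 in steroid arrays and just missed the threshold (log2 1.01, adjusted p = 0.0503). AT4G31615, listed as REM35, read 32.2 and 37.6 in mock and 35.0 and 34.8 in steroid arrays (log2 0.00, 95% interval -0.32 to 0.32). The B3 genes NGA2 and NGA4, of the NGATHA group that acts in style development, had log2 values of 0.56 and 0.29 and did not pass. Over the 7 tested members of the REM and other B3 list the median log2 was 1.01, beside a median of 0.00 over all tested probe sets. Of the 7, 3 were called higher and 0 lower, beside 0.933% and 0.684% of all tested probe sets. The list was matched by symbol or synonym, so B3 genes known by locus alone are outside it and these counts do not cover the whole family. The REM genes were noted as raised in an earlier analysis of the same arrays, so the choice of the list is not independent of its direction.

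A further 8 named genes rose at least 4-fold, and the annotation gives each of them a locus without a symbol. AT3G11000 read 19.2 and 17.2 in mock and 130 and 116 in steroid arrays (log2 2.50, SE 0.13, adjusted p = 2.67e-06). AT3G19550 read 20.7 and 17.4 in mock and 106 and 152 in steroid arrays (log2 2.49, SE 0.17, adjusted p = 2.16e-05). AT5G57720 read 10.6 and 7.11 in mock and 66.7 and 57.1 in steroid arrays (log2 2.34, SE 0.18, adjusted p = 7.03e-05). These 3 were called under all 14 alternatives, as were 260355_at, 251898_at, 254391_at and 246072_at, which makes 7 of the 267 calls. AT5G47600 started from a moderate signal, 62.5 and 72.2, and reached 341 and 261 (log2 2.08). The other 4 were AT1G47610 (log2 2.68), AT1G02190 (2.33), AT4G26280 (2.11) and AT1G73620 (2.07). Below 4-fold, AT3G46770 (1.99), AT1G16705 (1.78) and AT3G04960 (1.65) also belonged to the largest named rises. The gene chr31, a SNF2-type chromatin remodelling gene, rose from 7.43 and 3.44 to 27.2 and 22.8 (log2 1.61, SE 0.25, adjusted p = 0.0101).

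**Figure D2:**
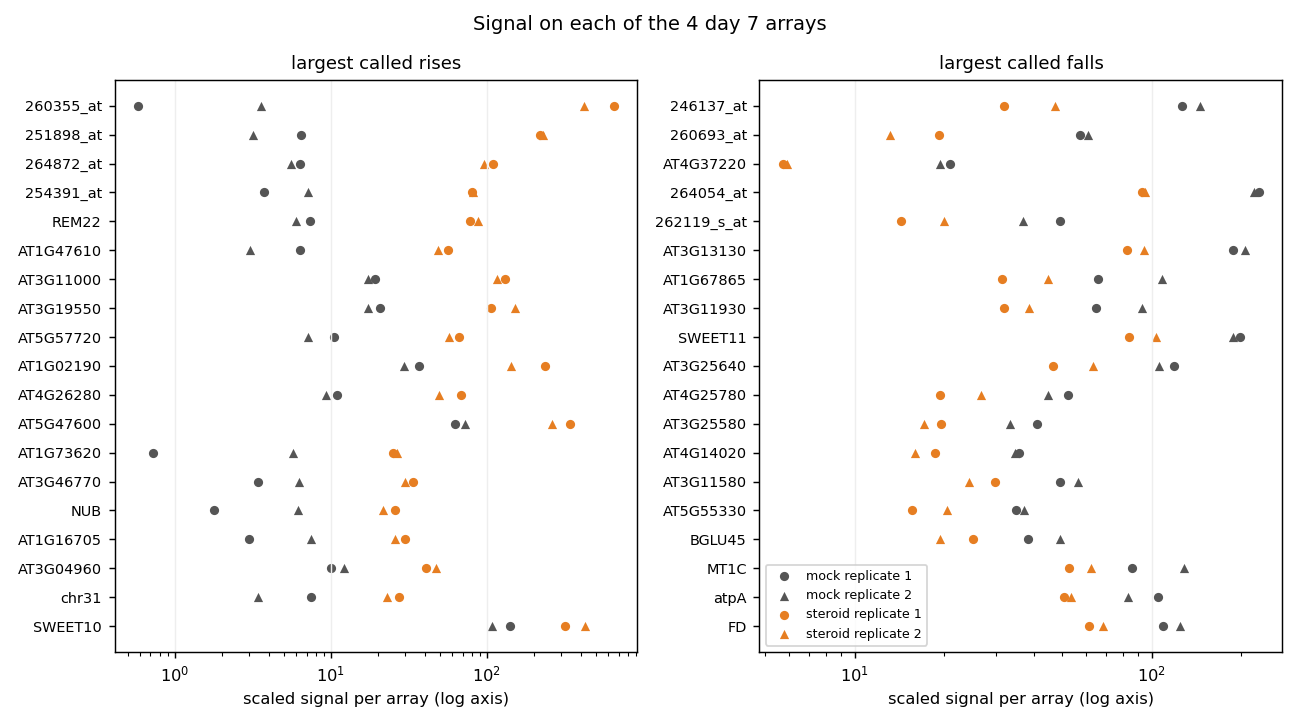
Scaled signal (x, log axis) on each day 7 array for the largest called rises (left) and falls (right), in the order of fold change, with mock arrays in grey and steroid arrays in orange. In each row shown the mock and steroid arrays are apart, and most rises start from mock signals below 20 while most falls start above 30.

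Genes of stamen development were few among those with a name. NUB, the zinc finger protein NUBBIN that acts with JAGGED in the growth of stamens and carpels, read 1.78 and 6.17 in mock and 25.8 and 21.7 in steroid arrays and rose (log2 1.80, SE 0.28, adjusted p = 0.0106, 1.38 to 2.19 over the alternatives). It was the single call among the 4 tested stamen and anther genes, whose median log2 was 0.42. Of the 4, 2 (50%) had an unadjusted p under 0.05, beside 14.5% of all tested probe sets. ROXY1, a glutaredoxin that acts in petal and anther development, read 93.9 and 112 in mock and 72.7 and 63.2 in steroid arrays and narrowly missed the threshold (log2 -0.57, adjusted p = 0.058). EMS1, the receptor kinase that sets the tapetum apart in the anther, had a log2 value of 0.27, with mock replicate 2 at 42.5 and the other 3 arrays between 66.7 and 72.8. None of the 4 tested meiosis genes was called by limma (0 at an unadjusted p under 0.05, median log2 -0.02, and 0.01 with arrays centred over tested probe sets), and ZYP1b, of the synaptonemal complex, read 7.57 and 11.2 against 6.77 and 5.66. Of the 6 named members of the pollen list 1 was tested, AGL18, with a log2 value of 0.20. Anther, meiosis and pollen genes known by locus alone or without a single name are outside these lists.

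The carpel, ovule and MADS-box lists hold only probe sets with a single gene name. Another 7279 tested probe sets have none, so floral genes among them are outside these counts. Named carpel and ovule genes were called in 0 of 10 cases, with 2 at an unadjusted p under 0.05, or 20% beside 14.5% of all tested probe sets. Their median log2 was 0.18, and 8 of the 10 lay above 0. ALC, a bHLH protein of the fruit's opening zone, read 364 and 382 in mock and 492 and 409 in steroid arrays (log2 0.26, adjusted p = 0.293). SPT, its relative in carpel fusion, had a log2 value of 0.20, and TSO1, which acts in ovule and meristem cell division, had 0.16. The ovule gene INO was weak in all arrays, between 7.53 and 10.1. The MADS-box list, with 18 tested named members, had a median of -0.13, with 0 called higher, 1 lower and 6 (33.3%) at an unadjusted p under 0.05. That call was AGL71, a relative of the flowering gene SOC1, which read 220 and 265 in mock and 153 and 171 in steroid arrays (log2 -0.57, SE 0.12, adjusted p = 0.041). Its close relatives AGL42 and AGL72 had values of -0.50 and -0.52 and did not pass (adjusted p = 0.0766 and 0.175). The median of the MADS-box list turned to 0.07 without mock replicate 1.

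Among 8 meristem genes 1 was called, and it was lower. FD read 109 and 124 in mock and 61.2 and 68.7 in steroid arrays and fell 1.74-fold (log2 -0.80, SE 0.12, adjusted p = 0.0106). Its steroid arrays were both below its mock arrays, and on days 1 and 3 its differences were 0.15 and 0.01. AGL24 (log2 -0.32) and ULT1, which acts in ending the floral meristem (-0.31), had lower steroid signals on both arrays without passing the adjusted threshold (adjusted p = 0.196 and 0.236). The peptide gene CLE27 lay the other way, from 18.4 and 22.8 to 45.2 and 32.8 (log2 0.79, adjusted p = 0.0598), and CLV3 had a log2 value of 0.35 (adjusted p = 0.533). The list's median was -0.29, and 0.01 without steroid replicate 2. Of its 8 members 4 (50%) had an unadjusted p under 0.05, beside 14.5% of all tested probe sets.

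**Figure D3:**
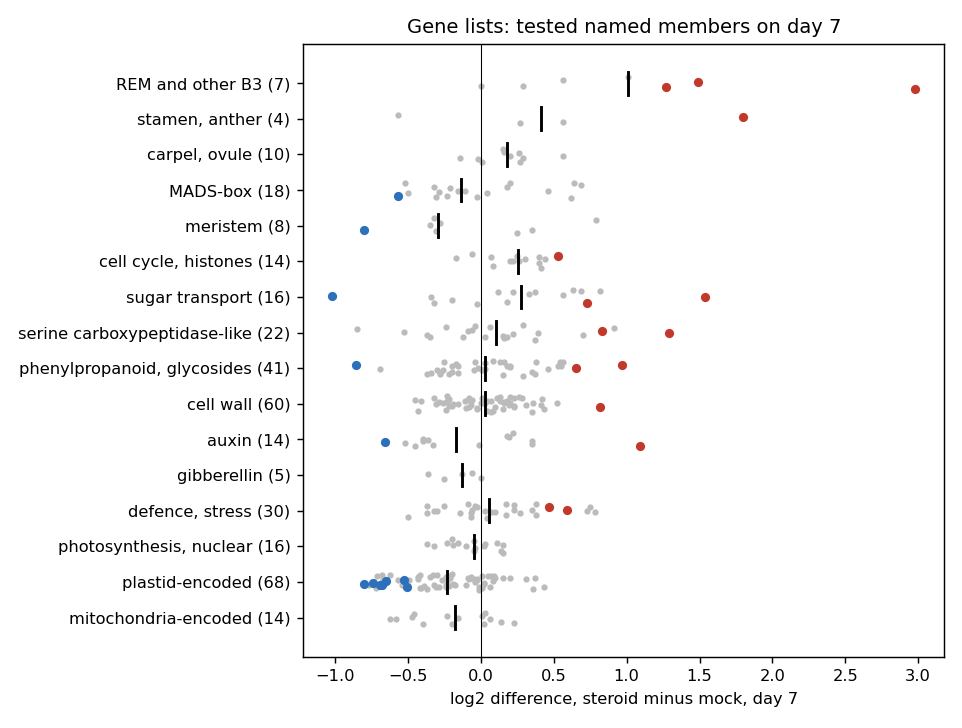
Log2 difference, steroid minus mock, of the tested named members of 16 gene lists on day 7, with the number tested after each name, called rises in red, called falls in blue, other members in grey and a black bar at the median. The REM and other B3 list lies furthest to the right with a median of 1.01, and all 7 called plastid-encoded genes lie to the left.

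Sugar transporters of the SWEET family moved in opposite directions. SWEET10 rose from 140 and 107 to 316 and 422 (log2 1.54, SE 0.15, adjusted p = 0.000488), and SWEET1 from 58.3 and 59.1 to 100 on each steroid array (log2 0.73, adjusted p = 0.0117). SWEET11, known for sucrose export in leaf phloem, fell from 198 and 188 to 84.1 and 103 (log2 -1.02, SE 0.12, adjusted p = 0.0021). The mock and steroid arrays of these 3 did not overlap, which was so for 22.4% (higher) and 22.3% (lower) of all tested probe sets. Over the 16 tested sugar genes the median was 0.27, with 2 called higher and 1 lower. An unadjusted p under 0.05 was found for 7 (43.8%), beside 14.5% of all tested probe sets. SWEET8, which feeds developing pollen, was at 8.64 and 6.19 in steroid arrays and not called (log2 0.56).

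Auxin genes also split. GH3.3, of a family that joins auxin to amino acids, rose from 26.8 and 22.8 to 56.7 and 58.6 (log2 1.09, SE 0.14, adjusted p = 0.00369). GH3.17, of the same family, fell from 67.0 and 69.7 to 37.3 and 46.7 (log2 -0.66, adjusted p = 0.0434). The 14 tested auxin genes had a median of -0.17, with 1 called higher and 1 lower, and the median was 0.02 without steroid replicate 2. Of the 14, 5 (35.7%) had an unadjusted p under 0.05, beside 14.5% of all tested probe sets. The gibberellin list (5 tested, median -0.13) had 1 member at an unadjusted p under 0.05. Limma called 0 in that list, in the cytokinin list (2 tested, -0.33) and in the ethylene list (1 tested, -0.03). No member of the jasmonate list was tested. These lists were matched by symbol or synonym, so hormone genes known by locus alone or without a single name are outside them. The cytokinin median was 0.03 without steroid replicate 1 and -0.68 without steroid replicate 2, as ARR15, a response regulator, read 1.90 and 14.6 in the steroid arrays. The ethylene gene was at 0.11 without steroid replicate 1.

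Among the serine carboxypeptidase-like genes, enzymes that trim proteins or transfer acyl groups, 2 of 22 were called, both higher. They were scpl38, from 3.63 and 4.04 to 14.7 and 16.8 (log2 1.29, adjusted p = 0.0244), and scpl50, from 17.9 and 24.9 to 46.4 and 36.4 (log2 0.83, adjusted p = 0.0478), and the list's median was 0.11. In that list 7 of 22 (31.8%) had an unadjusted p under 0.05, beside 14.5% of all tested probe sets. Of 41 phenylpropanoid and glycoside genes (median 0.03) 2 were called higher and 1 lower, with 10 (24.4%) at an unadjusted p under 0.05. The flavonoid gene CHIL rose from 144 and 128 to 223 and 209 (log2 0.65, adjusted p = 0.0151), and UGT84A1, a glucosyltransferase of hydroxycinnamates, from 20.5 and 15.2 to 48.3 and 31.1 (log2 0.97, adjusted p = 0.0445). BGLU45, a glucosidase of lignin precursors, fell from 38.3 and 49.1 to 25.0 and 19.3 (log2 -0.86, adjusted p = 0.0331). Of 60 cell wall genes (median 0.02, and -0.01 with quantile normalization) only TBL26 was called, higher by 0.82. Among the 60, 9 (15%) had an unadjusted p under 0.05, near the share over all tested probe sets.

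In the defence and stress list 2 of 30 genes were called, both higher (median 0.05). An unadjusted p under 0.05 was found for 9 (30%), beside 14.5% of all tested probe sets. COR15B, a cold-induced chloroplast protein, rose by 0.59 on the log2 scale (adjusted p = 0.0485). LCR69, a defensin-like peptide gene among the brightest signals, read 1946 and 1837 in mock and 2743 and 2488 in steroid arrays (log2 0.47, adjusted p = 0.0381), and with quantile normalization its log2 value was 0.14 and it was not called. It was also the single call among 14 signal peptide genes (median 0.10), of which 3 (21.4%) had an unadjusted p under 0.05. The lists of cytochromes P450 (10 tested, median -0.11), bHLH, TCP and NAC factors (8, -0.03), cuticle lipids (3, -0.03), trichome genes (2, 0.14), transport channels (2, 0.10) and ribosomal proteins (1, 0.33) had 0 calls by limma, with 2, 1, 1, 1, 0 and 1 members at an unadjusted p under 0.05. The transport median was -0.05 without steroid replicate 1, and that of the bHLH, TCP and NAC factors was 0.01 with arrays centred over tested probe sets. These lists were matched by symbol or synonym, so genes known by locus alone, by another symbol or without a name are outside them. Their 0 calls therefore do not cover whole families, ribosomal proteins included. ATMYC1, which the bHLH, TCP and NAC list does not hold, was called lower (log2 -0.70). The MYB list, matched in the same way, held 1 tested gene, MYBC1, which fell by 0.66 on the log2 scale (adjusted p = 0.0215). The vascular list held SWEET10 and SWEET11, above, and GUT2 (0.03).

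Of 14 cell cycle genes and histones 12 lay above 0, and 1 was called. AUR1, an Aurora kinase of mitosis, read 77.1 and 73.0 in mock and 114 and 106 in steroid arrays (log2 0.53, SE 0.11, adjusted p = 0.0476). Its relative AUR2 had 0.44 and the H2B histone gene HTB2 0.40, and neither passed (adjusted p = 0.109 and 0.083). The median of the list was 0.25, with 6 of 14 (42.9%) at an unadjusted p under 0.05, beside 14.5% of all tested probe sets, of which 50.2% lay above 0. On days 1 and 3 the list's median was below 0, at -0.18 and -0.27. HIS1-3, a linker histone that the list does not hold, was called lower on day 7 (log2 -0.69, adjusted p = 0.0311). The median lay between 0.21 and 0.30 under the 2 other scalings and with each array left out.

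The largest falls were again in probe sets without a single gene name. Probe set 246137_at fell from 126 and 146 to 31.8 and 47.1 (log2 -1.70, SE 0.16, adjusted p = 0.000413) and 260693_at from 57.4 and 60.9 to 19.3 and 13.1 (log2 -1.64, adjusted p = 0.000648). Among probe sets without a single gene name, 264054_at (log2 -1.23) and 262119_s_at (-1.14) followed. The largest fall with a name was AT4G37220, from 20.9 and 19.4 to 5.74 and 5.90 (log2 -1.27, SE 0.21, adjusted p = 0.0163). AT3G13130 fell from 188 and 206 to 82.7 and 94.4 (log2 -1.11, adjusted p = 0.000612). AT1G67865 (-1.09), AT3G11930 (-1.06), AT3G25640 (-0.99), AT4G25780 (-0.96), AT3G25580, AT4G14020 and AT3G11580 (each -0.87) and AT5G55330 (-0.86) completed the loci without a symbol. MT1C, a metallothionein, fell from 85.6 and 129 to 52.6 and 62.3 (log2 -0.83, adjusted p = 0.0384).

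Genes encoded in the plastid genome made up 7 of the 113 falls. Of 68 tested, 0 were called higher and 7 lower, the median log2 was -0.23, and 51 lay below 0. Over all tested probe sets 0.684% were called lower. An unadjusted p under 0.05 was found for 28 of the 68 (41.2%), beside 14.5% of all tested probe sets. The called genes encode subunits of ATP synthase (atpA and atpB), the photosystems (psaB and psbK), the cytochrome b6f complex (petL) and the NDH complex (ndhD and ndhI). The gene atpA read 105 and 83.2 in mock and 50.5 and 53.4 in steroid arrays (log2 -0.80, SE 0.14, adjusted p = 0.0173). The gene psbK read 333 and 295 against 186 and 202 (log2 -0.68, adjusted p = 0.0115), and ndhI 442 and 418 against 288 and 303 (log2 -0.53, adjusted p = 0.0218). Values for psaB, ndhD, petL and atpB were -0.74, -0.69, -0.65 and -0.51. Some plastid genes lay the other way without passing, such as the bright ribosomal protein genes rps4 (0.43) and rpl33 (0.36).

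The plastid-encoded values differed between the steroid arrays. The median deviation of the 68 genes from their mean over the 4 arrays was 0.115 and 0.098 in mock, and -0.184 and -0.061 in steroid replicates 1 and 2. Called members numbered 0 without steroid replicate 1 and 1 without steroid replicate 2, while the median stayed between -0.20 and -0.31 under the 2 other scalings and with each array left out. On days 1 and 3 the list's median was 0.35 and 0.44, on the other side of 0. Photosynthesis genes of the nucleus had 0 calls among 16 by limma, 2 at an unadjusted p under 0.05 and a median of -0.05, and RCA, the Rubisco activase, read 463 and 403 against 375 and 429. The 14 mitochondria-encoded probe sets had a median of -0.18, with 0 calls and 2 at an unadjusted p under 0.05. As shares, these 2 of 16 and 2 of 14 were close to the 14.5% of all tested probe sets. Of the 2, cox1 went from a mock mean of 119 ± 11.0 (SD, n = 2) to 84.2 ± 5.91 (log2 -0.47, adjusted p = 0.0832).

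**Figure D4:**
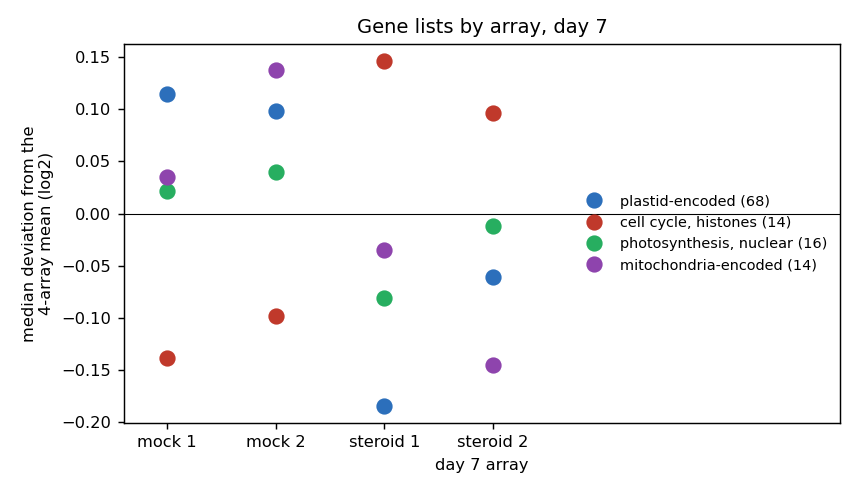
Median deviation of each list's members from their own mean over the 4 day 7 arrays (y, log2), by array (x), with the number of members in the legend. Plastid-encoded genes lie at 0.115 and 0.098 in mock and at -0.184 and -0.061 in steroid arrays, and cell cycle genes lie on the opposite side of 0 on each array.

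The day 7 differences were then set beside those of days 1 and 3, which have their own mock arrays. The arrays of days 1 and 3 were read on scans 3 to 5, so day 7 against the earlier days cannot be told apart from scan. Their deposited medians ran from 16.1 to 32.2, against 62.6 to 95.2 on day 7. The part of scan and raw signal in the values below was not tested. Those earlier arrays were noisier, with a median residual SD of log2 signal of 0.335 on day 1 and 0.321 on day 3 against 0.132 on day 7. Their 3' to 5' GAPDH ratios ran from 4.16 to 15.8 and those of ubiquitin from 3.77 to 6.79, above all those of day 7, while those of actin, from 3.45 to 8.98, overlapped the 4.37 to 6.42 of day 7. Of the 55 rises of at least 2-fold, 67.3% were also above 0 on day 1 and 70.9% on day 3, beside 46.5% and 39.4% of all probe sets above 0 on day 7. Over all 154 rises the shares were 48.7% and 46.8%. Of the 113 falls, 61.9% were below 0 on day 1 and 77.9% on day 3, beside 52.4% and 65.7% of all probe sets below 0 on day 7.

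The largest rises differed in how far they stood above 0 on the earlier days. Probe set 260355_at had log2 differences of 3.22, 3.61 and 6.39 on days 1, 3 and 7, and 251898_at had 2.64, 3.35 and 4.66. REM22 had 0.67, 1.88 and 2.98, and AT3G11000 had 1.69, 1.85 and 2.50. Probe set 264872_at, the third in size, had -0.77, 0.99 and 3.37, and 254391_at, the fourth, had 0.24, 2.15 and 3.15. AT5G47600 had -0.11, 0.47 and 2.08, and SWEET10 had 0.33, -0.06 and 1.54. Limma's test of the day 7 difference against the mean of the earlier differences, over all 12 arrays, called 0 of 16511 probe sets (0%), with 461 at an unadjusted p under 0.05 and a lowest adjusted p of 0.50. With array weights per group it called 8 (0.0485%), of which 7 were further up on day 7 (0.0424%) and 1 further down (0.00606%).

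**Figure D5:**
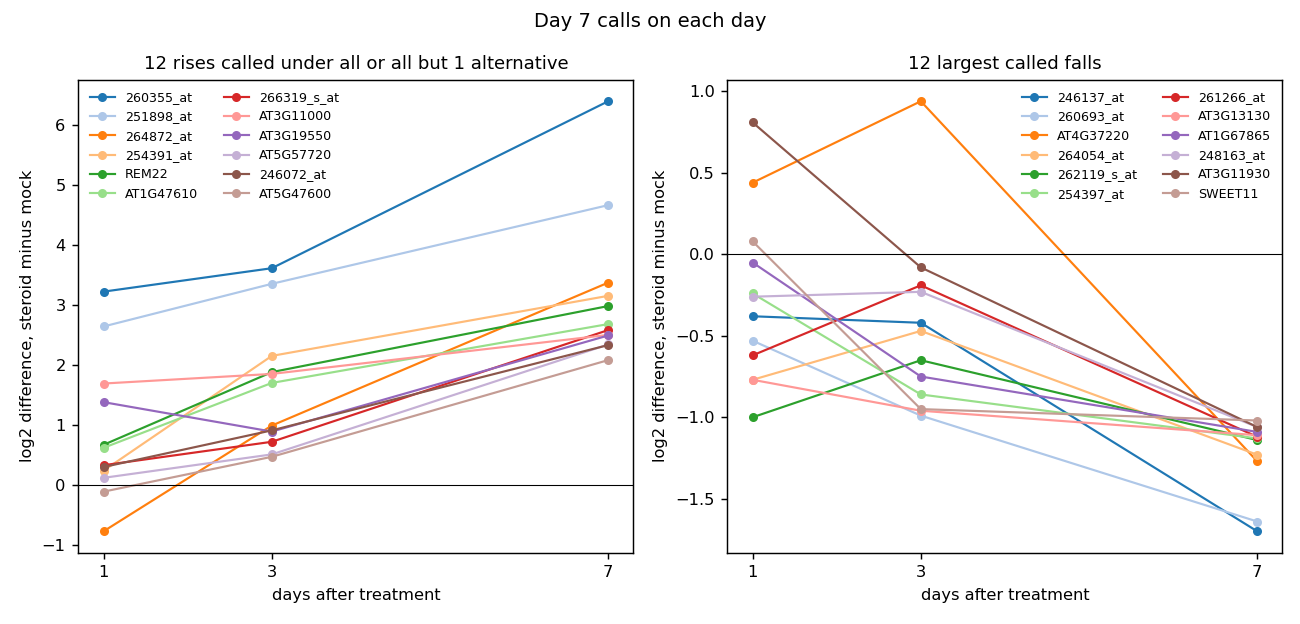
Log2 difference, steroid minus mock (y), on days 1, 3 and 7 (x) for the 12 rises called under all alternatives or all but the shared spread of 12 arrays (left) and for the 12 largest called falls (right), with 1 line per probe set. All 12 rises are highest on day 7, which their choice by day 7 calls favours, and 260355_at and 251898_at are already above 2.5 on day 1. Limma's contrast of day 7 against the earlier days, with 1 spread over 12 arrays, called 0 probe sets.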

How the data were processed

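Expression was read on ATH1 arrays, 1 per sample, and the 4 day 7 arrays form the main comparison. The authors deposited a table of linear signal intensity per probe set, made with MAS5 per the submitters' processing notes, with version and target not given in the sources used here; other deposited records gave scan, lot, fluidics and control probe ratios. Each array was scaled to a median of 24.8, 4.35 was added and log2 taken. A probe set was tested if at least 2 of 12 arrays exceeded their own 40th percentile, which left 16511 of 22746. limma 3.58.1 in R 4.3.3 (lmFit, eBayes with a variance trend, 2 residual and 9.17 prior degrees of freedom) gave two-sided p-values, adjusted by Benjamini-Hochberg over all tested probe sets, threshold 0.05. An exact permutation of 2 against 2 cannot go below 0.333. A second limma contrast over 12 arrays set day 7 against days 1 and 3. The script was tested on simulated data. Probe sets took a name where the table gives 1 gene (9232 tested; 7279 without), matched to the RefSeq annotation TAIR10.1; no coordinates are given, as the files name no build.

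Named are the 15 largest rises and 15 largest falls with a gene name, the 4 largest of each without one, and the called members of 30 gene lists (or up to 2 members with values where none was called); a few further list members were chosen after their values were seen. The comparison and the lists were chosen with earlier results of these data known. Organelle lists were matched by chromosome after the annotation was seen, and 13 pattern matches were left out by function. The other lists were matched by symbol or synonym, so their counts do not cover whole families. Alternatives were other scalings, offsets, filters and spreads, a replicate block, and leaving out each array.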

Additional observations from a re-analysis of the deposited data

Results flagged for a closer look

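With array weights per group, 8 probe sets had a day 7 difference that departed from the mean of the day 1 and day 3 differences (limma adjusted p under the threshold). With 1 spread shared by 12 arrays none of the 8 passed (lowest adjusted p = 0.50). Probe set 264872_at departed by 3.27 (adjusted p = 0.0340), with log2 differences of -0.77, 0.99 and 3.37 on days 1, 3 and 7. Probe set 260355_at departed by 2.97 (adjusted p = 0.0364) and AT1G02190 by 2.50, from -1.30 and 0.95 to 2.33. Probe sets 258321_at, 246072_at and 252849_at departed by 1.90, 1.73 and 1.36, and AT3G53310 by 1.54. The plastid gene psaI departed by -1.92, with 1.06 and 1.41 on days 1 and 3 and -0.68 on day 7, where it was not called (adjusted p = 0.0692).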

How the results depend on the processing

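The count of 267 calls (154 higher, 113 lower) moved to 16 (14 and 2) with no filter on weak signals, 16 (16 and 0) without a variance trend, and 9 (8 and 1) when 12 arrays shared 1 spread. Leaving out 1 array gave 26 to 429 calls, 20 to 227 higher and 6 to 238 lower. Other scalings, offsets, the day 7 filter and weights per group gave 219 to 342. For the difference between days, weights per group gave 8 calls (7 and 1) in place of 0. With the replicate number as a block the count was 794 (399 and 395), and the number goes with the fluidics module in both groups (module 3 for replicate 1, module 4 for replicate 2). The labels do not say that a number pairs samples, and the correlation of the replicate differences between mock and steroid was 0.0883. A scan block could not be fitted, as each scan holds 1 group on day 7. Of the values of genes named by rule under these settings, 887 stayed on their side of the threshold, 225 lost it, 4 gained it and 0 reversed. The cause was not tested. Only 2 arrays a group limit the precision.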

Other observations

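Called genes with a symbol that no list holds, described after their values were seen, numbered 10. Higher were ACT11, a reproductive actin (log2 0.82), the subtilase SBT1.3 (0.68), CXE18 (0.62) and EXO (0.58). Lower were ATMYC1 (-0.70), the linker histone HIS1-3 (-0.69), ATSBT5.2 (-0.64), AOP3 (-0.63), the glucosinolate transporter GTR2 (-0.59) and the microtubule-associated ATMAP65-6 (-0.50).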
